A study of Mus musculus with 1699 samples.

Results

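The dopamine D2 receptor gene Drd2 and the 4 genes of the GIRK potassium channel subunits, Kcnj3 (GIRK1), Kcnj6 (GIRK2), Kcnj9 (GIRK3) and Kcnj5 (GIRK4), were followed in single cells sorted from the ventral midbrain of Pitx3eGFP mice. These 5 genes were taken by name from 39468 gene entries, each had 1 entry, and their levels were read by age, by Pitx3 genotype and by the level of Slc6a3, the dopamine transporter gene. Of 1699 cells, 1649 passed the limits on reads and detected genes, and 1461 were kept after leaving out cells with at least 3 oligodendrocyte-lineage markers. The kept cells are not the set that the paper analysed, which was smaller. A cell with Slc6a3 over an RPKM of 150 (reads scaled to gene length and library size) is called Slc6a3-high, a cell at 10 or less Slc6a3-low; these are ranges of 1 transcript, not cell types.

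Heterozygous Pitx3eGFP/wt mice gave 320 kept cells as adults at P90, 84 at P7, 264 at P1, 178 at E18.5 and 140 at E13.5, with a further 9.65% of the kept cells from E15.5. Homozygous Pitx3eGFP/eGFP mice gave 12.1% of the kept cells at E13.5 and 10.7% at P1. Mice of both sexes were used. Slc6a3-high cells made up 21.9% and Slc6a3-low cells 68.4% of the P90 cells, against 40.5% and 46.2% of the heterozygous P1 cells. By in situ sequencing, the paper placed most Pitx3-eGFP-positive cells in its own Dat-high clusters (Dat is Slc6a3). It reports that these are underrepresented among the sequenced cells. Shares over all kept cells thus describe the sorted cells, not the tissue. The allele, Pitx3tm1Mli in the labels, has eGFP targeted to the Pitx3 locus. The heterozygous controls thus also carry 1 targeted allele, and the paper treats homozygous cells as Pitx3 knockout. Some Pitx3 reads remained in homozygous cells. At E13.5, Pitx3 was over an RPKM of 10 in 62.2% of homozygous Slc6a3-low cells (mean 19.1) and 86.5% of heterozygous ones (mean 430.7). At P1 the same class had 27.9% (mean 7.74) and 39.3% (mean 48.2). All cells were sorted for eGFP, a reporter of the Pitx3 locus, yet cells with oligodendrocyte-lineage markers, left out here, and cells with astrocyte, microglia or vascular markers were among them. No label ties a cell to an animal. Each stage and genotype is therefore 1 sample, no p-value is given, and all intervals are 95% intervals for the counting of cells or reads only. Dissociation kits differed between embryonic, early postnatal and adult tissue and plates followed stage, so neither can be told apart from age. ERCC spike-in RNA followed stage in part: no Pitx3eGFP/wt cell at E13.5, E15.5 or P7 had it, and all at E18.5 and P90 did. Homozygous cells were on plates of their own, so plate and genotype cannot be told apart either. Every Pitx3eGFP/eGFP cell had ERCC spike-in RNA and no Pitx3eGFP/wt cell at E13.5 had it, so at that stage spike-in and genotype cannot be told apart.

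Dopamine released from the cell body and dendrites of a midbrain dopamine neuron binds D2 autoreceptors on the same or a neighbouring neuron. The receptor activates Gi/o proteins, whose beta-gamma subunits open GIRK channels. The outward potassium current then slows firing. GIRK channels are tetramers: GIRK2 can form channels by itself, GIRK1 needs a partner, GIRK3 is a subunit that also affects how channels are sorted in the cell, and GIRK4 is best known from the heart. Dopamine neurons of the substantia nigra are known for GIRK2, the subunit that is mutated in weaver mice.

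In the GRCm38 assembly, Drd2 lies on the plus strand of chromosome 9 from 49340627 to 49408177, with 8 exons in its longest transcript. Kcnj3 spans 162.176 kb on chromosome 2 (55435970 to 55598145, plus strand), Kcnj6 spans 249.066 kb on chromosome 16 (94748636 to 94997701, minus strand), Kcnj9 spans 8.818 kb on chromosome 1 (172320501 to 172329318, minus strand) and Kcnj5 lies on chromosome 9 (32314707 to 32344350, minus strand). Reads did not keep their strand, and exons of Kcnj3, Kcnj6 and Kcnj9 overlap exons of an antisense gene (Gm26794, Gm41505 and Gm36937), so reads from either strand cannot be told apart there.

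Both Pitx3 alleles were targeted in part of the mice, and Nr4a2 marks the same neurons. The 250 bases before each annotated start (RefSeq, GRCm38.p6) were therefore searched on both strands. The letters searched were TAATCC, a Pitx3-type site, and AAAGGTCA, an Nr4a2-type site. The promoters of the receptor and of the subunits whose shares of cells over an RPKM of 10 differed most, in points, between the adult Slc6a3 classes are shown 5′ to 3′ on the strand of the gene, with the only match in capitals.
Drd2, chr9:49340153-49340402, plus strand: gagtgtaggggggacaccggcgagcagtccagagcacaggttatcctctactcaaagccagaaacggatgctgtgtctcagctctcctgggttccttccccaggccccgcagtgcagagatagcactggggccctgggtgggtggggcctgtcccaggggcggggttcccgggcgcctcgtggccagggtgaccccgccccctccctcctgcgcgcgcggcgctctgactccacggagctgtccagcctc
Kcnj6, upstream start, chr16:94997697-94997946, minus strand: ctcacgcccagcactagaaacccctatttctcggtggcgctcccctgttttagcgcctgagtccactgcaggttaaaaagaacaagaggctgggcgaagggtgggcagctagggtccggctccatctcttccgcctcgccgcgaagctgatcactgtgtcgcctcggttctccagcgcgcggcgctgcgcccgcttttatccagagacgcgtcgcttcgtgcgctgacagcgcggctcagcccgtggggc
Kcnj9, chr1:172329323-172329572, minus strand: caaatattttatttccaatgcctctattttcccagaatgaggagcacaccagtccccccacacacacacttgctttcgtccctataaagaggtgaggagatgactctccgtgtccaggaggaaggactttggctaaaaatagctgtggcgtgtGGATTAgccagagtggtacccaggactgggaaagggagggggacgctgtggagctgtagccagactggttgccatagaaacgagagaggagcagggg
The match is GGATTA, the reverse complement of TAATCC, from base -97 to base -92 of Kcnj9. The promoters of Drd2, Kcnj3 and Kcnj5 and both starts of Kcnj6 held neither motif. Of 32851 promoters of this length, 6.25% held the Pitx3-type letters and 1.34% the Nr4a2-type letters. The Drd2 window was 68.8% G and C and that of Kcnj9 52%, against a median of 52.4% over all promoters. A match is a description of the letters, not a shown binding site.

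The kept cells had from 100007 to 8634201 reads on gene entries, with group medians from 746212 (E13.5, Pitx3eGFP/eGFP) to 2357900 (E13.5, Pitx3eGFP/wt). At the P90 median depth, an RPKM of 10, the limit used here to call a gene detected, stood for 22.6 reads of Drd2 and for 43.2 to 65 reads of the 4 subunits. Th, which encodes the rate-limiting enzyme of dopamine synthesis, was over 10 in 98.6% of P90 Slc6a3-high cells and in 58% of Slc6a3-low cells, and Nr4a2 in 96.8% of the latter. At P7, none of the 8 dopaminergic markers was over 10 in most Slc6a3-low cells. The 5 astrocyte markers there summed to a mean RPKM of 2374, against 14.9 in P7 Slc6a3-high cells, so the label of neuron is not borne out by these markers for part of that class.

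Over the 1461 kept cells, Drd2 was over 10 in 393 (26.9%), Kcnj6 in 17.2%, Kcnj9 in 9.38%, Kcnj3 in 9.03% and Kcnj5 in 24 cells (1.64%). The highest single-cell values were an RPKM of 444.75 for Drd2, 419.74 for Kcnj6, 137.49 for Kcnj3, 132.59 for Kcnj9 and 79.63 for Kcnj5. RPKM is scaled to gene length and library size only. Coverage along a transcript is not corrected, so values of different genes are set side by side with that limit. Over these pooled cells the receptor was the most frequent of the 5 and the GIRK4 gene the least. In P90 Slc6a3-low cells, however, Drd2 (7.76%) came after Kcnj9 (31.5%), Kcnj3 (22.4%) and Kcnj6 (16.9%).

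Drd2, the autoreceptor gene, was at every stage from E15.5 on the member with the widest difference in share between the Slc6a3 classes, while at E13.5 that was Kcnj6. In P90 Pitx3eGFP/wt mice it was over 10 in 55 of 70 Slc6a3-high cells (78.6%) and in 17 Slc6a3-low cells (7.76%), so that the classes lay 70.8 points apart (59.03 to 79.3). Per cell, Drd2 ran from 0 through a median of 93.2 to a highest RPKM of 423.8 in Slc6a3-high cells, and from 0 through a median of 0 to 163.6 in Slc6a3-low cells. Thus the ranges overlapped, with a minority of low cells reaching the level typical of high cells. The mean RPKM was 104.4 against 4.73, a ratio of 22.04. Summed reads, scaled to library size only (RPM), gave a Drd2 level of 119.1 (117.3 to 120.9) against 5.11 (4.90 to 5.33). Depth was similar in both classes, with medians of 1869410 and 1730400 reads and 8928 and 8760 detected genes.

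The receptor difference was also read within plates. Within the 4 P90 plates it was 50.9, 82.4, 81.7 and 74.7 points. In all 13 plates or unplated sets with at least 5 cells of each class, the Drd2 share was higher in Slc6a3-high cells, by 7.96 to 82.4 points.

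**Figure D1:**
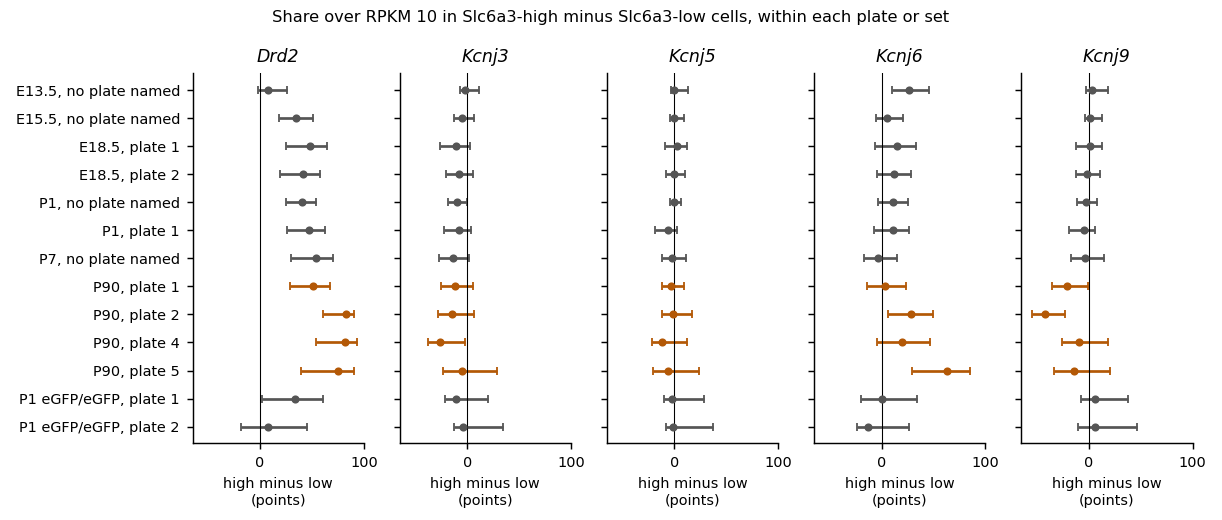
Difference between Slc6a3-high and Slc6a3-low cells in the share over an RPKM of 10 (x axis, percentage points, 95% Newcombe intervals) for each gene within each plate or unplated set (y axis), with P90 plates in orange. All 13 points lie above 0 for Drd2 and below 0 for Kcnj3, and the 4 P90 points lie above 0 for Kcnj6 and below 0 for Kcnj9.

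By age, the youngest Slc6a3-high cells, of E13.5, had a Drd2 share of 12% (3 of 25 cells). The share was 42.1% (16 of 38) in E15.5 and 69.3% (52 of 75) in E18.5 embryos, then 58.9% (63 cells) in P1 and 72% (18 of 25) in P7 pups, and 78.6% in adults. Most of the difference lay before birth. E18.5 exceeded E13.5 by 57.3 points (36.2 to 69.5), P1 did not differ from E18.5 beyond the interval (-10.5 points, -23.7 to 3.80), and P90 exceeded P1 by 19.7 points (5.60 to 32.1). That last difference excluded 0 in 13 of 17 alternatives. It did not without P90 plate 2 (14.6 points) or without the P1 cells that had no plate name (11.3 points, -4.39 to 27). Nor did it without cells that had an astrocyte, microglia or vascular marker (14.3 points, -0.61 to 27.5). In the same order of age, the mean RPKM of Slc6a3-high cells was 11.7, 29.6, 70.7, 67.7, 80.8 and 104.4. Spike-in RNA was absent at E13.5, E15.5 and P7 and present at E18.5 and P90. At P1, Drd2 was over 10 in 67.3% of Slc6a3-high cells with it and 50.9% of those without (16.4 points, -2.18 to 33.4). The part of spike-in in the differences by age was not tested.

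Slc6a3-low cells took another course. Their Drd2 share, from the youngest stage to the adult, was 3.85%, 7.61%, 25%, 13.1%, 18.2% and 7.76%, and so was highest in E18.5 embryos. The E18.5 value lay 21.2 points over that at E13.5 (11.1 to 32.2), while P90 and E13.5 did not differ beyond the interval (3.92 points, -2.40 to 8.83). With a detection limit of RPKM 1 the latter difference excluded 0 (7.06 points, 0.08 to 12.7). The gap between the classes was 8.15 points in E13.5 cells (-1.49 to 26.3). It measured 34.5 in those of E15.5 (18.5 to 50.7), 44.3 just before birth (28.8 to 56.8), 45.8 just after it (33.9 to 55.9) and 53.8 in P7 cells (29.9 to 70.04). In Pitx3eGFP/wt cells it excluded 0 at every stage except E13.5, where it did so in 3 of 11 alternatives, such as thinning to 100000 reads (12.2 points, 1.03 to 31), and ran up to 14.3 points. Set against only the Slc6a3-low cells with Th over 150, it did not exclude 0 just before birth (19.3 points, -0.48 to 38.1) or at P7 (34.5 points, -2.95 to 62). Whether the gap itself differed between stages was not tested. Over all kept Pitx3eGFP/wt cells, whose mix of classes differs by age, the share was 5.71%, 19.1%, 48.3%, 37.5%, 42.9% and 26.2% from E13.5 to P90.

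**Figure D2:**
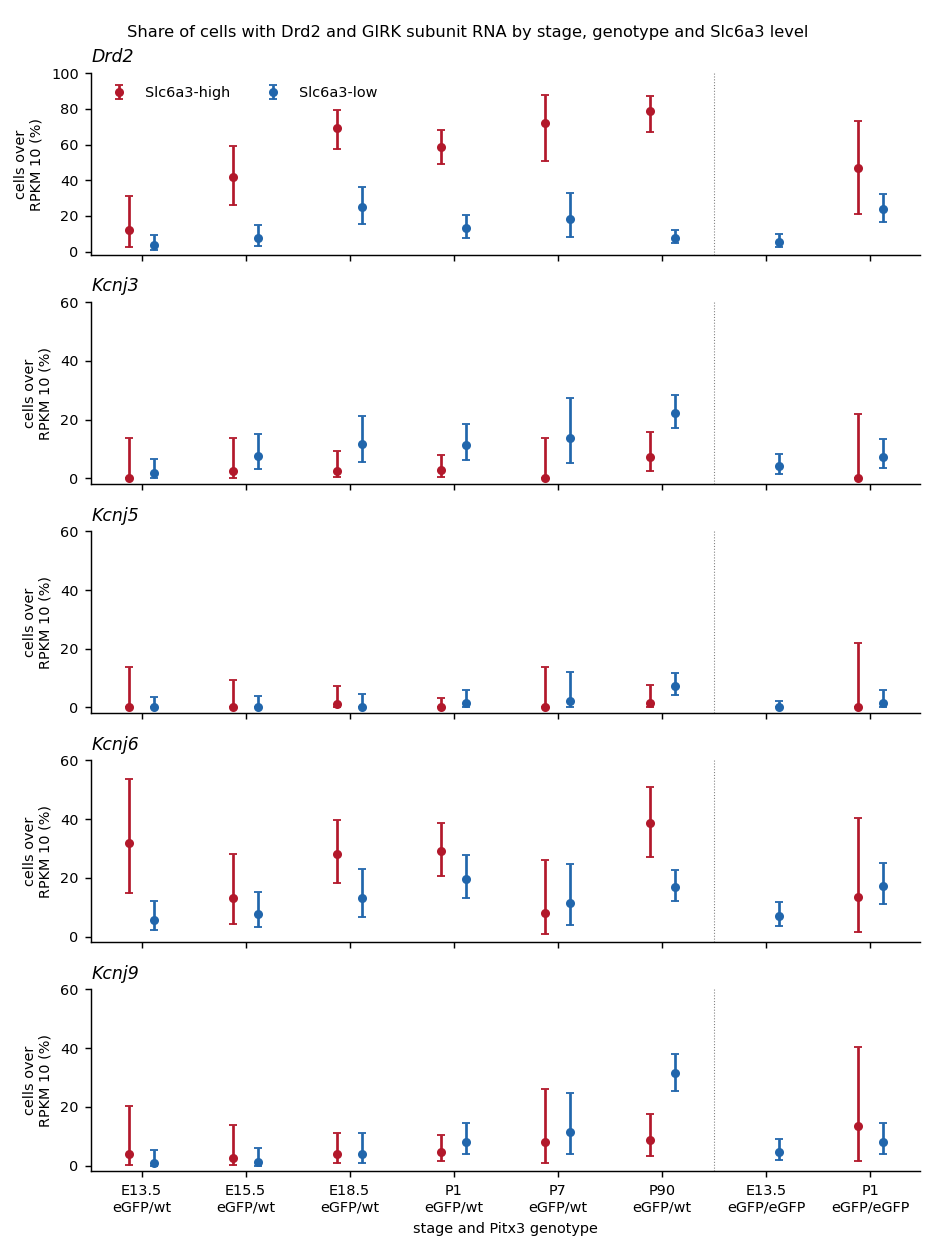
Share of cells over an RPKM of 10 (y axis, percent, with exact 95% intervals; the Drd2 axis runs to 100 and the others to 60) for each gene in Slc6a3-high and Slc6a3-low cells of each stage and Pitx3 genotype (x axis), leaving out the 1 Slc6a3-high cell of E13.5 Pitx3eGFP/eGFP mice. Drd2 goes from 12% at E13.5 to 78.6% at P90 in Slc6a3-high cells, and Kcnj9 from 0.96% to 31.5% in Slc6a3-low cells.

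Along the Slc6a3 level at P90, the Drd2 share was 3.23% in cells without a Slc6a3 read, 8.51% up to 10, 29.4% from 10 to 50, 50% from 50 to 150, 72.2% from 150 to 500, 70.6% from 500 to 1500 and 85.7% above. The step was graded rather than set by either limit. Over all Pitx3eGFP/wt stages, cells with Slc6a3 just under 150 (100 to 150, 35 cells) had Drd2 in 60% and a mean of 108.2, and those just over it (31 cells) in 51.6% and a mean of 72.8. Near the lower limit, 30% of 20 cells at 5 to 10 and 50% of 8 cells at 10 to 15 had Drd2. The intervals on either side of each limit overlapped.

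**Figure D3:**
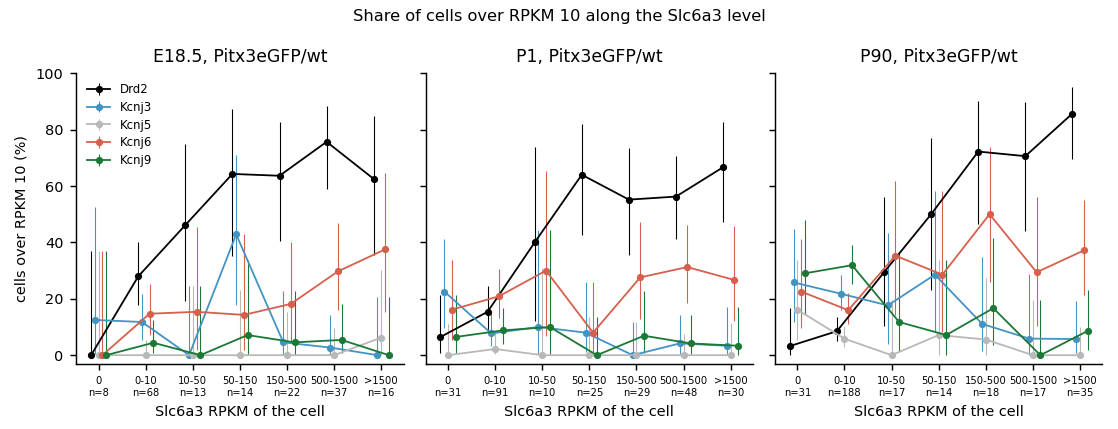
Share of cells over an RPKM of 10 (y axis, percent, with exact 95% intervals) by the Slc6a3 RPKM of the cell (x axis, 7 ranges with the number of cells) at E18.5, P1 and P90 in Pitx3eGFP/wt mice. At P90 the Drd2 line goes from 3.23% to 85.7%, while the Kcnj9 line goes from 29.03% and 31.9% in the lowest ranges to 8.57% in the highest.

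Kcnj6, the gene of GIRK2, was more frequent in Slc6a3-high than in Slc6a3-low cells at E13.5, E18.5 and P90. The P90 shares were 38.6% (27 of 70) and 16.9% (37 cells), 21.7 points apart (9.79 to 34.2), with mean RPKM 13.2 and 6.71. Per cell, Kcnj6 ran from 0 through a median of 1.06 to 96 in Slc6a3-high cells and from 0 through a median of 0 to 130 in Slc6a3-low cells, so the highest values came from Slc6a3-low cells. The difference was uneven over the 4 P90 plates, at 2.92, 28.3, 19.3 and 63.5 points. Without plate 1 it was 32.8 points and without plate 5 it was 15.2.

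At E13.5 the Kcnj6 shares were 32% and 5.77% (26.2 points, 10.2 to 46.1), when Drd2 was over 10 in only 12% of the same Slc6a3-high cells. At E18.5 they were 28% and 13.2% (14.8 points, 1.90 to 27.3), a difference that excluded 0 in 8 of 13 alternatives and not without either plate (11.7 and 14.8 points). The classes did not differ beyond the interval at E15.5 (13.2% and 7.61%), at P1 (28.97% and 19.7%, 9.30 points, -1.79 to 20.3) or at P7 (8% and 11.4%). Alternatives changed both later calls. At P1 the difference excluded 0 with a limit of RPKM 1 (16.5 points, 4.37 to 28.2) and with the oligodendrocyte-like cells kept (12.2 points, 2.16 to 22.5), and at P7 it did so against only the Slc6a3-low cells with Th over 150 (-29.5 points, -61.9 to -0.26). In Slc6a3-high cells the Kcnj6 share at P90 and E13.5 did not differ beyond the interval (6.57 points, -15.7 to 25.4), but with a detection limit of RPKM 50 it was lower at P90 (-17.1 points, -36.4 to -4.0). The E13.5 cells averaged an RPKM of 22.97 and the adult cells 13.2. The P7 value came from 25 cells. P7 minus P1 gave -20.97 points (-31.8 to -2.32) and P90 minus P7 gave 30.6 points (10.6 to 43.6). In Slc6a3-low cells Kcnj6 was 11.1 points more frequent at P90 than at E13.5 (3.49 to 17.5).

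Kcnj9 and Kcnj3 had the opposite split from Drd2 in the adult. Kcnj9, the gene of GIRK3, was over 10 in 6 of 70 Slc6a3-high cells (8.57%) and in 69 Slc6a3-low cells (31.5%) at P90, a gap of -22.9 points (-30.8 to -12.3). The classes had a mean RPKM of 2.17 and 11.2 and, from summed reads, an RPM of 4.85 (4.50 to 5.22) and 28.2 (27.7 to 28.7). The highest Kcnj9 value was 31.6 in Slc6a3-high cells and 121.5 in Slc6a3-low cells, with medians of 0 and 0.64. Within P90 plates the difference was -20.5, -41.9, -9.62 and -13.9 points. Without plate 2 it was -15.1 points.

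The Kcnj9 share of the low cells was highest in the adult. In Slc6a3-low cells its share was 0.96%, 1.09% and 3.95% at the 3 embryonic stages in order, 8.20% in P1 and 11.4% in P7 pups, and 31.5% in adults. P90 exceeded E13.5 by 30.5 points (23.3 to 37.02), P1 by 23.3 (14.8 to 30.7) and P7 by 20.1 (6.26 to 29.2). With a detection limit of RPKM 50 the difference from P1 was 3.38 points and did not exclude 0. In Slc6a3-high cells the share ran from 2.63% at E15.5 to 8.57% at P90, and P90 did not differ from E13.5 beyond the interval (4.57 points, -11.6 to 14.1). Before P90, no stage had a difference between the classes that excluded 0 for Kcnj9.

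Kcnj3, the gene of GIRK1, was over 10 in 7.14% of P90 Slc6a3-high cells (5 of 70) and in 22.4% of Slc6a3-low cells (49 cells), a difference of -15.2 points (-22.4 to -5.35), with mean RPKM 1.51 and 8.04. Set against only the Slc6a3-low cells with Th over 150, the difference no longer excluded 0 (-9.93 points, -20.3 to 0.85). The highest cell had 33.1 in the high class and 66.3 in the low class. The share was lower in Slc6a3-high cells in all 13 plates or sets, by 1.92 to 26.5 points. Between the classes the share did not follow the Slc6a3 level evenly. Cells with Slc6a3 from 50 to 150 had Kcnj3 in 42.9% at E18.5 (17.7 to 71.1, 14 cells) and in 28.6% at P90 (8.39 to 58.1, 14 cells). At P1 the same range had it in 8% (0.98 to 26, 25 cells). The classes differed in Kcnj3 at E18.5 (2.67% and 11.8%, -9.18 points, -18.5 to -0.64) and at P1 (2.80% and 11.5%, -8.67 points, -15.8 to -1.85) too. Most alternatives ended the E18.5 call, which held in 6 of 13 and was lost without either plate (-8.17 and -10.5 points) and with a single Slc6a3 limit of 50 (-1.12 points). The P1 call held in 8 of 14 and was lost without the cells that had no plate name (-7.58 points). In Slc6a3-low cells P90 exceeded E13.5 by 20.5 points (13.5 to 26.6), from 1.92% to 22.4%.

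Kcnj5, the gene of GIRK4, was most frequent in adult Slc6a3-low cells. It was over 10 in 16 of them (7.31%), with a highest RPKM of 79.6, and in 1 of 70 Slc6a3-high cells (1.43%). The difference of -5.88 points did not exclude 0 (-10.3 to 0.94). Earlier Pitx3eGFP/wt stages held 1 Slc6a3-high cell (E18.5) and 3 Slc6a3-low cells (2 at P1, 1 at P7) over 10 in all. No Slc6a3-low cell at E13.5 was over 10, which by a floor of 3 counts in all allows a share of up to 2.88%, and P90 exceeded that stage by 7.31 points (2.80 to 11.5). With a detection limit of RPKM 50, the P90 differences between the classes of Kcnj6 (-0.80 points), Kcnj9 (-5.02) and Kcnj3 (-2.28) no longer excluded 0, and that of Kcnj6 changed sign. Nor did the differences between P90 and E13.5 in Slc6a3-low cells for any of the 4 subunits.

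**Figure D4:**
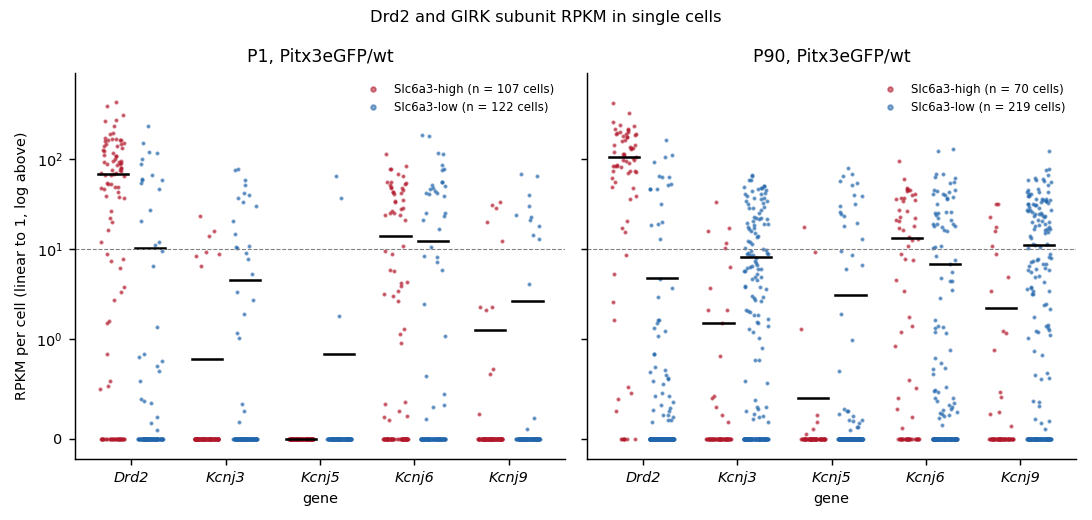
RPKM of each gene (y axis, linear to 1 and logarithmic above) in each Slc6a3-high and Slc6a3-low cell of P1 and P90 Pitx3eGFP/wt mice, with the mean as a black bar and the limit of 10 as a dashed line. At P90, Drd2 averages 104.4 in the 70 Slc6a3-high cells and 4.73 in the Slc6a3-low cells, whereas Kcnj9 averages 2.17 and 11.2.

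Ordered by mean RPKM, adult Slc6a3-high cells had Drd2 (104.4), Kcnj6 (13.2), Kcnj9 (2.17), Kcnj3 (1.51) and Kcnj5 (0.41), while adult Slc6a3-low cells had Kcnj9 (11.2), Kcnj3 (8.04), Kcnj6 (6.71), Drd2 (4.73) and Kcnj5 (3.09). Across the 15 combinations of group and class with at least 10 cells, the highest Drd2 shares were all in Slc6a3-high cells, from 78.6% (P90) through 72% (P7) and 69.3% (E18.5) to 58.9% (P1). Neighbours in this order did not differ beyond their intervals for any of the 5 genes, so only distant positions in it are told apart.

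Set against all genes, 1 member (Drd2) was at least 2-fold higher and 3 (Kcnj3, Kcnj5 and Kcnj9) at least 2-fold lower in mean RPKM in P90 Slc6a3-high cells. Kcnj6 was 1.97-fold higher. Among the 14925 entries whose mean reached 1 in a class, 7.32% were at least 2-fold higher and 14.6% at least 2-fold lower. At P1, where 4 members reached a mean of 1, Drd2 was 2-fold higher and Kcnj3 and Kcnj9 2-fold lower, against 6.47% and 16% of 16064 entries. From E13.5 to P90, 2 of 4 members measured (Drd2 and Kcnj3) were at least 2-fold higher in Slc6a3-high cells (27.8% of all entries) and 3 of 5 in Slc6a3-low cells (25.8% of all entries). In the high cells the Kcnj3 mean was 0.02 at E13.5 and 1.51 at P90, and its share difference did not exclude 0 (7.14 points, -6.78 to 15.7). No member was 2-fold lower in either class, where 28.7% and 25.4% of all entries were.

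The subunit combinations in single cells follow in part from the single-gene shares above. Whether they departed from those shares as a whole was not tested. In P90 Slc6a3-low cells, Kcnj5 was over 10 in 14.3% of 49 cells with Kcnj3 and 5.29% of 170 without. This difference was 8.99 points (0.53 to 21.6), and no other pair in that class had one that excluded 0. In P90 Slc6a3-high cells, 35 of 70 (50%) had no subunit over 10, 34.3% had Kcnj6 alone, 4.29% had at least 2 subunits and 11.4% had others without Kcnj6. In P90 Slc6a3-low cells, 93 cells (42.5%) had none, 8.68% had Kcnj6 alone, 17.8% Kcnj9 alone, 10.05% Kcnj3 alone and 6.39% Kcnj3 with Kcnj9. At least 2 subunits were over 10 in 18.3%, and subunits other than Kcnj6 without it in 40.6%. Adult high cells with any subunit thus mostly had Kcnj6 by itself, and adult low cells mostly had another. A subunit under 10 in a cell may still be present: Kcnj6 had at least 1 read in 60% of the P90 Slc6a3-high cells and Kcnj9 in 54.3% of the Slc6a3-low cells.

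The receptor and at least 1 subunit were both over 10 in 40% of P90 Slc6a3-high cells and 4.11% of Slc6a3-low cells. Drd2 and Kcnj6 were found together in 30% of the high cells. Conversely, a subunit without Drd2 was found in 53.4% of the low cells and 10% of the high cells. At P1, 14.95% of Slc6a3-high cells had Drd2 with a subunit and 43.9% had Drd2 with none. Within a class, Drd2 and Kcnj6 were not linked beyond counting error: among P90 Slc6a3-high cells Kcnj6 was over 10 in 38.2% of cells with Drd2 and 40% of those without, and at P1 in 22.2% and 38.6% (-16.4 points, -33.4 to 1.01).

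**Figure D5:**
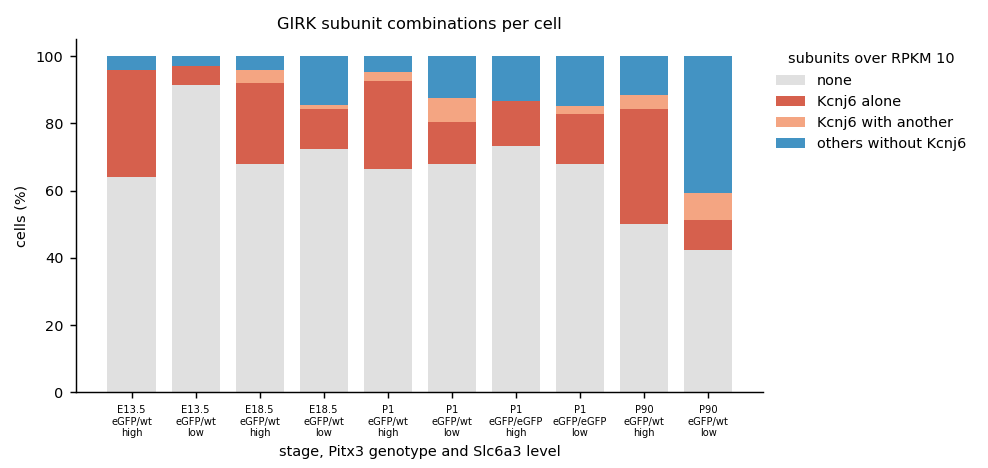
Stacked bars of the share of cells (y axis, percent) with no GIRK subunit over an RPKM of 10, Kcnj6 alone, Kcnj6 with another subunit, or other subunits without Kcnj6, by stage, Pitx3 genotype and Slc6a3 level (x axis). In P90 Slc6a3-high cells Kcnj6 alone makes up 34.3% and the others without Kcnj6 11.4%, and in P90 Slc6a3-low cells 8.68% and 40.6%.

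Pitx3 encodes a homeodomain factor of midbrain dopamine neurons. At P1, Drd2 was over 10 in 46.7% of Pitx3eGFP/eGFP Slc6a3-high cells (7 of 15) and in 58.9% of Pitx3eGFP/wt cells (63 cells), a difference of -12.2 points that did not exclude 0 (-35.8 to 12.9). The mean RPKM was 37.1 and 67.7. In Slc6a3-low cells the direction was the other one, with 23.8% (29 cells) and 13.1% (16 cells), or 10.7 points (0.89 to 20.3), and means of 19.4 and 10.2. Among cells with spike-in RNA only, the latter difference was 3.77 points (-13.5 to 16.7), since the 35 heterozygous cells left had Drd2 in 20%. Whether the genotype differences differed between the classes was not tested. The classes are cut on Slc6a3, and classes of the same name were not matched in it between genotypes. Slc6a3-high cells at P1 had a median Slc6a3 RPKM of 288.5 in homozygous and 742.5 in heterozygous mice. Slc6a3-low cells made up 77.7% and 46.2% of the P1 cells, and 97.2% and 74.3% of the E13.5 cells. The part of this in the genotype differences within a class was not tested. Within the homozygous P1 cells the Drd2 share of the high class exceeded that of the low class by 22.9 points, which did not exclude 0 (-0.48 to 47.1). Over 13 alternatives this ran from -7.33 to 40.4 points and excluded 0 in 7. Only 15 homozygous P1 cells (9.55%) were Slc6a3-high, against 40.5% of the 264 heterozygous cells, and over all kept cells Drd2 was 9.47 points less frequent in Pitx3eGFP/eGFP mice (-18.3 to -0.11), with means of 23 and 44.5.

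For the subunits, no genotype difference at P1 excluded 0 in either class as measured here. In 2 alternatives one did: Kcnj3 in low cells with the Slc6a3 limits moved to 300 and 1 (-8.89 points, -18.6 to -0.12), and Kcnj5 in high cells with a detection limit of RPKM 1 (6.67 points, 0.18 to 29.8). The Kcnj5 mean RPKM was 0.66 in those 15 homozygous cells and 0 in the heterozygous ones, under the mean of 1 for a measured entry. Kcnj6 was over 10 in 13.3% of homozygous and 28.97% of heterozygous Slc6a3-high cells (-15.6 points, -28.9 to 10.1) and in 17.2% and 19.7% of Slc6a3-low cells. Kcnj9 was over 10 in 8.20% of the Slc6a3-low cells of both genotypes, and Kcnj3 in 7.38% and 11.5%. In P1 Slc6a3-low cells none of the 4 measured members differed 2-fold in mean between genotypes, where 8.99% of entries were 2-fold higher and 10.9% 2-fold lower in Pitx3eGFP/eGFP cells. In P1 Slc6a3-high cells, 1 of 3 measured members was 2-fold higher (Kcnj9, 3.08 in homozygous and 1.24 in heterozygous cells) and 1 lower (Kcnj6, 5.95 and 13.9), beside 12.6% and 21.3% of entries. In E13.5 Slc6a3-low cells, 2 of 4 were 2-fold higher (Kcnj3, 1.91 and 0.69, and Kcnj9, 2.71 and 1.19) and none lower, beside 8.94% and 9.55%. At E13.5 only 1 homozygous cell was Slc6a3-high. In the E13.5 Slc6a3-low cells Drd2 was over 10 in 5.23% (homozygous, 9 cells) and 3.85% (heterozygous, 4 cells), Kcnj6 in 6.98% and 5.77%, Kcnj3 in 4.07% and 1.92% and Kcnj9 in 4.65% and 0.96%, with no difference beyond the interval.

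The genes used to name dopamine neuron subgroups split the receptor further. Among Slc6a3-high cells of E18.5, P1 and P7, Drd2 was over 10 in 54.8% (63) of the cells with Aldh1a1, a retinaldehyde dehydrogenase of ventral substantia nigra neurons, over 150 and in 77.5% of 80 cells with it at 10 or less (-22.7 points, -34.7 to -9.18). Cells with the neuropeptide gene Vip over 150 had Drd2 in 88.9% of 18 cells and those with Vip at 10 or less in 62.7% (26.2 points, 3.45 to 37.03), but the Aldh1a1-low and Vip cells also had more detected genes, with medians of 8088 against 7203 and 8377 against 7573. Thinned to 100000 reads, the Vip difference no longer excluded 0 (21.8 points, -1.82 to 34.8), and with a limit of RPKM 50 neither did it (13.7 points) nor the Aldh1a1 difference (-9.78 points, -23.4 to 4.40). These splits pooled E18.5, P1 and P7 cells, which differed in plate, spike-in RNA and in part dissociation kit, without balancing the stages. The parts of stage and of detected genes in this were not tested. At P90 the Aldh1a1 split gave 76.5% and 81.2% for Drd2 (-4.78 points, -24 to 15.2) and, for Kcnj3, 0 of 34 cells, which by a floor of 3 counts allows a share of up to 8.82%, against 15.6% of 32 cells. The Kcnj3 difference of -15.6 points (-31.8 to -2.22) no longer excluded 0 after thinning (-6.25 points, -20.1 to 4.86), and no cell of either range was over an RPKM of 50.

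In P90 Slc6a3-low cells the Nxph4 level, a neurexophilin gene, went with differences in Drd2, Kcnj6 and Kcnj9. With Nxph4 over 150 against 10 or less (46 cells), Drd2 was over 10 in 5.06% (8 cells) and 15.2% (-10.2 points, -23.4 to -1.23), Kcnj6 in 10.8% and 30.4% (-19.7 points, -34.6 to -6.93) and Kcnj9 in 36.1% and 19.6% (16.5 points, 1.17 to 28.3). The Kcnj9 difference no longer excluded 0 after thinning (13.98 points, -1.27 to 25.7), and at a limit of RPKM 50 none of these 3 did (-6.16, -3.36 and 6.33 points). Kcnj3 did not differ beyond the interval, at 24.7% and 13.0%, but did so after thinning (17.6 points, 3.83 to 27.3). In Slc6a3-low cells of the E18.5, P1 and P7 stages pooled, the Nxph4 split gave 7.81% and 22.5% for Drd2 (-14.7 points, -23.5 to -3.57), while Kcnj6 (7.38 points) and Kcnj9 (0.57 points) did not differ beyond the interval. With Gad2, which encodes a GABA-synthesizing enzyme, over 150 (64 cells) against 10 or less, Kcnj5 was over 10 in 0 and in 16 cells (11.6%) (-11.6 points, -18 to -4.47), and at a limit of RPKM 50 this no longer excluded 0 (-4.35 points). Hence Kcnj5 was seen in the Gad2-poor range of the low cells. In the pooled E18.5, P1 and P7 low cells the Gad2 split gave 9.84% and 23.4% for Drd2 (-13.6 points, -22.5 to -1.95). At P90 it gave 14.1% and 5.80% for Drd2, the other direction, which did not exclude 0 (8.27 points, -0.06 to 19.2). The pooled Nxph4 and Gad2 splits mix stages with Drd2 shares of 25% (E18.5), 13.1% (P1) and 18.2% (P7) in low cells. Part of the P7 low cells had astrocyte markers. The stages were not balanced, and the part of this in the pooled differences was not tested.

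Th split the Slc6a3-low cells too, a split chosen after values were seen. At P90, 82 cells had Th over 150, of which 15.9% had Drd2 over 10, against 1.09% of the 92 cells with Th at 10 or less (14.8 points, 6.80 to 24.2). The same split gave 29.3% and 5.26% at P1 (24 points, 9.21 to 39.6) and 50% and 8.82% at E18.5. At P7 the difference did not exclude 0, with 37.5% of 8 cells and 13.3% of 30 cells (24.2 points, -4.72 to 57.1). Of the subunits, Kcnj6 had the direction of Drd2 at E18.5 (18.8% and 2.94%, 15.8 points, 0.30 to 32.5) and P7 (37.5% and 6.67%, 30.8 points, 2.87 to 63.1), and Kcnj5 the other direction at P90 (2.44% and 11.96%, -9.52 points, -17.9 to -1.59). The other subunit differences in this split did not exclude 0.

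The G proteins between receptor and channel were present in both classes at P90. The Gi/o alpha list (5 of 5 measured) and the G beta list (4 of 5) had no member 2-fold higher or lower, with median log2 ratios of 0.13 and 0.15 against -0.14 over all entries. Gnao1, the major neuronal Go alpha subunit, had a mean RPKM of 177.6 in Slc6a3-high and 161.9 in Slc6a3-low cells, and Gnai1 67.7 and 62.6. Smaller were Gnai2 (18.3 and 10.8) and Gnai3 (17.7 and 13.1). Gnb1 had 356.2 and 283.7 and Gnb5, the partner of the R7 family of RGS proteins, 119.6 and 154.6. Of 8 measured G gamma genes, 2 were higher (Gng5, 14.5 and 6.14, and Gng4) and 2 lower (Gng13, 20.8 and 92.6, and Gng12), beside 7.32% and 14.6% of all entries, while Gng3 had the highest mean, 749 and 558, followed by Gng2 with 334.97 and 193.6.

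RGS proteins speed the end of G protein signals. Of 15 measured, 3 were at least 2-fold higher in P90 Slc6a3-high cells (Rgs2, Rgs16 and Rgs20) and 3 lower (Rgs9, Rgs10 and Rgs12), beside 7.32% and 14.6% of all entries, with a median log2 ratio of -0.20. Rgs2 averaged 46.7 in the low class and was 3.47-fold higher in the high class, and Rgs10 had 9.74 and 55. Rgs4 had 57.8 and 102.7. Its mean over all P90 cells was the highest of the list, but Rgs2 exceeded it in the high class. None of 9 measured receptor and channel regulators differed 2-fold. Snx27, a sorting protein known to bind GIRK channels, had 57.2 and 48.97, the receptor kinase genes Grk2 37.4 and 50.2 and Grk6 18.7 and 11.4, and Gipc1, a D2 receptor binding protein, 33.02 and 22.2.

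Other receptors can act on the same channels. Of 20 measured Gi/o-coupled receptors at P90, 2 were at least 2-fold higher (Npy1r, 10.8 and 0.83, and Oprk1) and 10 lower, beside 7.32% and 14.6% of all entries, with a median log2 ratio of -0.85. At P1 the counts were 1 and 9 of 21, beside 6.47% and 16%. Htr1a, the serotonin 1A receptor, had 0.06 and 11.2. The GABA-B receptor gene Gabbr1 had 143.9 and 117.04 and the nociceptin receptor gene Oprl1 98.9 and 111.03, so both classes had other Gi/o-coupled receptors at levels like that of Drd2 in high cells. The remaining dopamine receptors were scarce, with Drd5 at 0.07 and 2.02 and Drd1 at 0.30 and 1.12. Of 11 other inward rectifiers, 4 were measured, none higher and 2 lower, and the most abundant were Kcnj16 (3.23 and 5.67) and Kcnj11 (2.83 and 4.04).

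Over 15 combinations of group and class, the mean levels most like Drd2 were those of Ntsr1, the neurotensin receptor (Pearson r 0.96 on log2 of mean RPKM + 1), Bex2 (0.92) and Sdc2 (0.92). Ntsr1 averaged 106.1 in P90 Slc6a3-high and 2.92 in Slc6a3-low cells. For Kcnj6 they were BC004004, Fam184a and Snora78 (0.80, 0.80 and 0.79), for Kcnj3 Chrm2, Prkcq and Fat1 (0.93, 0.91 and 0.88), for Kcnj9 Nipsnap2, Zbtb11 and Sik3 (0.86, 0.82 and 0.80) and for Kcnj5 Map4k2, Gm13629 and Sirt3 (0.88, 0.86 and 0.84). With a pseudocount of 0.1 or 10 in place of 1, Ntsr1 stayed nearest to Drd2, while other entries took some of the places for each subunit, such as Coro6 for Kcnj9 (at 10) and Spag4 for Kcnj3 (at 0.1). Between members, r was 0.30 for Drd2 and Kcnj6, -0.40 for Drd2 and Kcnj3 and 0.77 for Kcnj5 and Kcnj9. The last was 0.65 with a pseudocount of 0.1 and 0.88 with 10. Both genes of that pair had their highest mean in P90 Slc6a3-low cells (3.09 and 11.2), against at most 1.21 and 3.18 elsewhere. The weight of that group in r was not tested. These points share libraries and differ in depth, so the values describe the 15 means alone.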

How the data were processed

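Single cells were sorted for eGFP from ventral midbrain and sequenced with Smart-seq2. Per the labels and the study's methods, the authors aligned reads with STAR to mm10 with eGFP and ERCC sequences added, kept unique reads, and deposited read counts and RPKM per gene entry for each cell. Shares, means and ratios here use the deposited RPKM, and depth and RPM use the deposited counts. All intervals are at 95%: Clopper-Pearson (exact) for a share, Newcombe's for the difference of shares, exact Poisson for summed reads. The P90 classes held 70 high and 219 low cells, those of P1 107 and 122 (heterozygous) and 15 and 122 (homozygous), and the E13.5 low class 104 and 172 cells. Cells needed more than 100000 reads and at least 15% (3.4% at P90) of entries with a read in any cell detected. The study's further limits on read mapping were not applied. The authors left out oligodendrocytes by cluster, whereas a marker rule per cell was used here. Gene lists held Gi/o alpha, G beta, G gamma and RGS genes, regulators, other receptors and inward rectifiers, and cell type markers; an entry was measured where a class mean reached 1. The members and lists were chosen with earlier results of these data known. Named from each list were the 2 genes with the highest P90 mean and the 2 with the largest log2 ratio at a mean of at least 10, and, for likeness, 3 entries a gene; the other genes of counts of 5 or fewer were named after their values were seen. No cell pair had identical values. Alternatives covered the RPKM limit (1 and 50), thinning to 100000 reads, quality limits, oligodendrocyte and Slc6a3 limits and leaving out plates. Code was checked on simulated data. Python 3.11.15, numpy 2.4.6, pandas 2.3.3 and scipy 1.17.1 were used.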

Additional observations from a re-analysis of the deposited data

How the results depend on the processing

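Of 435 alternative values for the 30 main comparisons, 420 stayed within the main interval. These comparisons are, for each gene, the class differences at P1 and P90, and P90 against E13.5 and the P1 genotypes in each class. The alternatives reuse cells of the main setting and some intervals are wide, so this count says little on its own. A value inside the interval can still lose its call, as for Kcnj3 between the classes at P1 (0 excluded in 8 of 14). All 15 alternatives for the P90 Drd2 difference excluded 0 (62.7 to 81.1 points); leaving out single plates gave 65.8 to 81.1. Taking only Slc6a3-low cells with Th over 150, chosen after values were seen, gave 29.6 points for Drd2 at P1. A detection limit of RPKM 50 gave -2.28 (Kcnj3), -0.80 (Kcnj6, sign changed) and -5.02 points (Kcnj9) at P90, and a limit of 1 gave -29.1 (Kcnj3) and -32.7 (Kcnj9). For P90 against E13.5 in Slc6a3-low cells, a limit of 50 gave 2.28 (Kcnj3), 2.74 (Kcnj5), 0.77 (Kcnj6) and 4.06 (Kcnj9), and a limit of 1 gave 39.5 (Kcnj3) and 44.6 (Kcnj9); in Slc6a3-high cells a limit of 50 gave -17.1 for Kcnj6, a change of sign that excluded 0. The P90 against P1 difference of Kcnj3 in Slc6a3-low cells was -1.0 at 50, a sign change. A limit of 50 leaves few subunit-positive cells by construction. Homozygous against heterozygous Slc6a3-high cells at P1 gave -29.0 to -6.75 points for Kcnj6 without single plates (-29.0 without homozygous plate 1). The Drd2 genotype difference in P1 Slc6a3-low cells ran from 3.77 to 13.4 and excluded 0 in 8 of 15 alternatives. Only 15 homozygous cells at P1 were Slc6a3-high. No paired analysis was possible because no label ties cells of different groups to an animal, litter or day.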
